A study of Mus musculus with 4 samples.

Results

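Mouse primary osteoblasts treated with BMP2 alone were compared with untreated cells, 1 array against 1 array out of 4 in the series. The cells were grown in medium with 10% serum, and the treated culture received 200 ng/ml BMP2 for 72 h. No other agent was added to either culture. The other arrays received 4 µg/ml LOXL2, a secreted lysyl oxidase, without or with the same dose of BMP2, and they are used here only as a further pair in which BMP2 was the difference. The labels enter the cell type of both arrays without BMP2 as pre-osteoblasts and that of both BMP2 arrays as osteoblasts. They name no mouse strain or age and leave unsaid whether each culture was a preparation of its own.

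BMP2 is a secreted growth factor that binds pairs of type I and type II serine/threonine kinase receptors. The receptors phosphorylate SMAD1, SMAD5 and SMAD9, which enter the nucleus with SMAD4 and switch on target genes, among them the inhibitory SMADs that close a feedback loop. In the skeleton BMP signals drive mesenchymal cells towards cartilage and bone, and cartilage cells that enlarge before they are replaced by bone are called hypertrophic chondrocytes. The design text gives the aim as finding regulators of osteoblast differentiation driven by BMP2.

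Each culture gave 1 single-colour Agilent array, so no difference below has a replicate, an error between cultures or a test. The unit is the background-subtracted intensity of a probe, and differences are on the log2 scale after the 75th percentile of each array was subtracted. A gene was called higher or lower where it differed at least 2-fold. On the untreated array 61.3% of spots were well above background, and on the BMP2 array 60.4%. Spot error was small beside these thresholds for probes above background on both arrays. Over the 279 such probes that occupy 10 spots each, the log2 difference of 1 spot had a median standard deviation of 0.096. The 95th percentile of that deviation was 0.33 and the maximum 0.57, and probes below background were not covered. Both arrays lay on 1 slide with 1 scan time, and the effect of an array's place on the slide cannot be told apart from that of the treatment. In bulk RNA, fewer cells of a type and less RNA per cell cannot be told apart either.

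The labelled cell type was checked against its markers on these 2 arrays. Col1a1 and Sparc, which encode the main proteins of bone matrix, had intensities of 272581 and 501231 on the untreated array and of 271333 and 508026 on the BMP2 array. Runx2, the master transcription factor of osteoblasts, read 533 and 567. The late osteocyte genes Dmp1 and Sost were not well above background on either array. Cartilage genes were present before treatment as well, Col2a1 with 26966 on the untreated array, and so were macrophage genes, Csf1r with 6516.

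Of 24495 genes measured, 856 (3.49%) were higher and 1128 (4.61%) were lower with BMP2 alone, 8.1% in all. The median difference over all genes was 0.015. Large differences went both ways, with 121 genes at least 8-fold higher and 132 at least 8-fold lower. Among the 22895 genes above background on both arrays, 516 were higher and 617 lower. Of 7562 probes for long intergenic RNAs, 266 (3.52%) were higher and 339 (4.48%) lower, 8% in all.

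The share of calls followed signal strength. With genes divided into 4 equal classes by signal, 18.7% of the dimmest class and 2.66% of the brightest were called. LOXL2 against untreated, which uses the same untreated array, called 2.14% of genes in all, 8.21% in the dimmest class and 0% in the brightest. Normexp background correction, which compresses weak signals, ended 48 of 206 named calls, among them those of Smad9, Bmp3, Bmp6, Hjv, Cilp, Foxa3, Sufu, Aldh1a2, Tnfsf11, Hes1, Tfrc, Vwf and Mrc1.

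**Figure D1:**
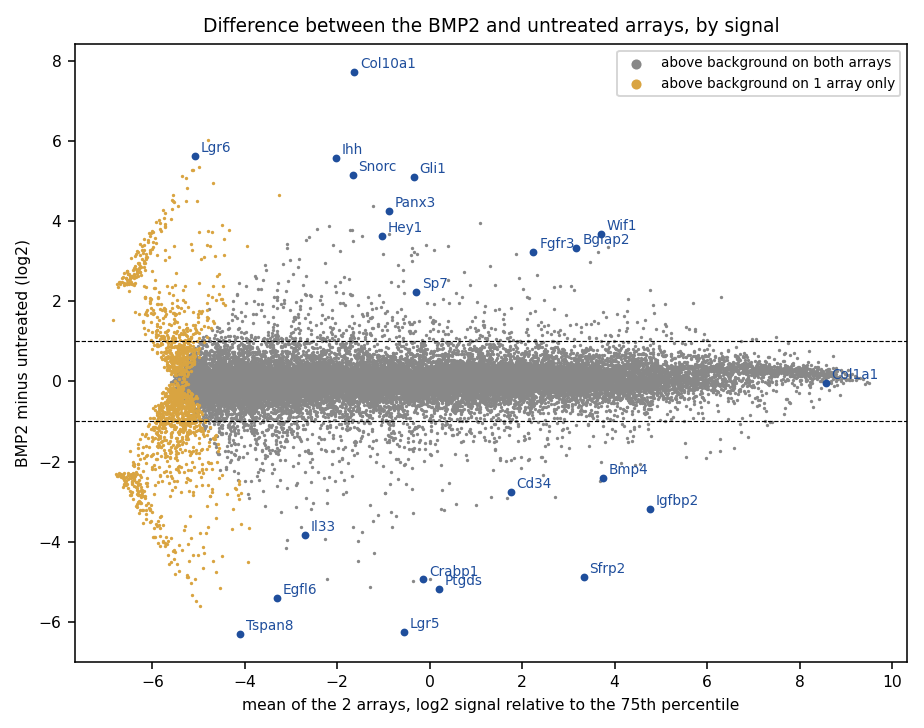
Each point is a gene, with the mean log2 signal of both arrays on the horizontal axis and the log2 difference of BMP2 minus untreated on the vertical axis. Dashed lines mark 2-fold, and genes above background on 1 array only (gold) fan out at low signal, while Lgr5, Sfrp2 and Ptgds lie far below and Ihh, Gli1 and Snorc far above the lines among genes measured on both arrays (grey).

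Agreement between separate probes of a gene was the check available within the pair. A gene takes its value from the probe of highest mean log2 signal. Of 146 genes with 2 or more probes that were called higher, 123 had all probes on the same side of 0, 79 had all of them at least 2-fold higher and 4 had a probe at least 2-fold lower. For 186 such genes called lower the counts were 166, 112 and 4. With signals below background at their bounds, all probes passed 2-fold in 67 genes higher and 106 lower. For comparison, all probes lay on the same side of 0 in 63.6% of all 6877 genes with 2 or more probes.

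The BMP2 difference was measured again on the pair of arrays with LOXL2, which share no array with the first pair. There, 876 genes (3.55%) were higher and 1130 (4.57%) lower, 8.12% of 24708. Of the 516 genes called higher and above background on both arrays, 386 were at least 2-fold higher again, 502 had the same sign and 0 were at least 2-fold lower. Of the 617 called lower, 472 were at least 2-fold lower again, 597 had the same sign and 1 was at least 2-fold higher. Those shares were 74.8% and 76.5%. Of the calls that rested on a probe below background on 1 array, 132 of 340 higher (38.8%) and 226 of 510 lower (44.3%) were at least 2-fold the same way again.

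**Figure D2:**
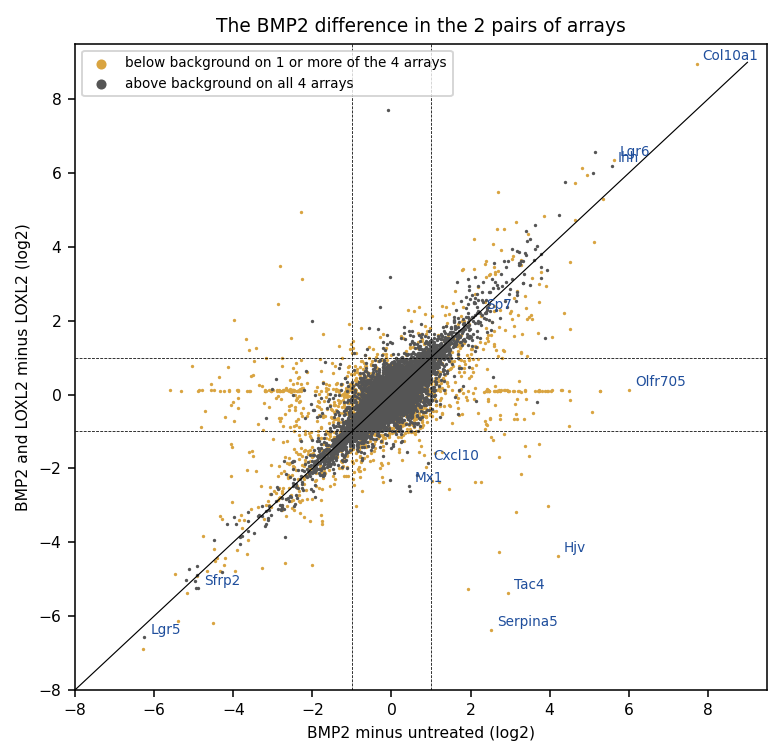
The horizontal axis is the log2 difference of BMP2 minus untreated and the vertical axis that of BMP2 and LOXL2 minus LOXL2, 1 point per gene, with the line of equality. Genes above background on all 4 arrays (grey) lie along the line from Lgr5 to Ihh, while genes below background on at least 1 array (gold) form a row at a vertical value near 0 that holds Olfr705.

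The genes closest to the receptor showed a graded picture. Of 20 BMP-SMAD target genes measured, 3 were higher and 0 lower, with a median of 0.24. Hey1, a transcriptional repressor, read 98.1 untreated and 1244 with BMP2, 12.4-fold higher. Unc5b, a netrin receptor, read 12411 and 48655, 3.84-fold higher. Smad9, a receptor-activated SMAD, read 234 and 525, 2.2-fold higher. The feedback inhibitor Smad6 read 1361 and 2623, just below 2-fold, and Smad7 read 1761 and 2766, a difference of 0.62.

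The ID genes, inhibitors of differentiation that are the textbook targets of BMP, differed little after 72 h. Id1 read 5831 and 9241, a difference of 0.63, and Id3 read 17607 and 21601, a difference of 0.27. Id2 differed by 0.05, and Id4 had a difference of -0.91. None of the 4 reached 2-fold. Bambi, a decoy receptor, was not well above background on either array.

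Among 16 secreted BMP antagonists, which bind the ligand outside the cell, 2 were higher and 1 lower. Grem1 read 649 untreated and 4864 with BMP2, 7.35-fold higher. Chrdl2 read 30.6 and 256, 8.2-fold higher. Sostdc1 went the other way, with 351 untreated and 20.02 with BMP2, 17.9-fold lower, and its 2 probes gave -4.16 and -3.09. Nog, which encodes noggin, read 638 and 647.

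Of 16 BMP and GDF ligands, 5 were lower and 1 higher, and the lower ones included the brightest, Bmp4. Bmp4 read 22050 untreated and 4210 with BMP2, 5.35-fold lower, and the difference on the arrays with LOXL2 was -2.51. Gdf6, a joint and tendon ligand, read 239 and 25.3, 9.62-fold lower. Bmp3 had a difference of -2.29, Bmp6 of -1.63 and Bmp7 of -1.15. With LOXL2 these 3 had differences of -1.25, -0.37 and -0.73, and 3 ligands of the list were lower. The gene of the added factor itself, Bmp2, differed by 0.24. Gdf15, a stress-induced distant member of the family, read 3104 and 9914.

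Of 21 receptors and SMADs in a list without Smad9, 1 was higher and 1 lower. Bmpr1a, Bmpr2, Smad1 and Smad5 differed by -0.10, 0.14, 0.10 and 0.12. Tgfbr2, the type II receptor for TGF-beta, read 18504 and 8975, a difference of -1.07. The gene counted as higher, Hjv, was below background on the untreated array and had the opposite sign with LOXL2.

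The TGF-beta list had 3 members higher and 5 lower of 16. Tgfbi, a matrix protein, read 6832 untreated and 29012 with BMP2, 4.16-fold higher, and the ligand Tgfb1 read 442 and 1257. Lower were the ligand Tgfb3, with a difference of -1.12, and 4 genes of the contractile apparatus. Acta2, smooth muscle actin, read 171277 and 86284, 2.03-fold lower, though just short of 2-fold with median scaling or none, and Tagln, Cnn1 and Tpm1 had differences of -1.02, -1.18 and -1.41.

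Osteoblast transcription factors were higher in 6 of 18 and lower in 0, with a median of 0.58. Sp7 (osterix), which acts below Runx2, read 266 untreated and 1283 with BMP2, 4.72-fold higher. Dlx5 read 577 and 1517, 2.57-fold higher. The Wnt effectors Lef1 and Tcf7 were 5.56-fold and 3.72-fold higher, and both probes of Lef1 exceeded 2-fold. The second Tcf7 probe was not above background untreated and gave a bound of 1.67-fold. Runx2 differed by 0.06, with its 3 probes between 0.06 and 0.58.

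Genes of the mineralising matrix divided between late products and structural collagen. Of 29 members, 9 were higher and 1, the membrane protein Lrrc15, was lower, with a median of 0.24. The osteocalcin genes Bglap, Bglap2 and Bglap3, which lie side by side on chromosome 3, read 206, 2026 and 2909 untreated and 2234, 20637 and 27565 with BMP2. Their differences were 3.41, 3.32 and 3.21, and the split between these near-identical copies is uncertain, since their probes may share signal. Ibsp, bone sialoprotein, read 2786 and 13832, 4.86-fold higher. Alpl, the phosphatase that starts mineralisation, read 6594 and 21474, 3.19-fold higher.

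Other large differences in this list were in a channel and an enzyme. Panx3, a pannexin of osteoblasts and hypertrophic chondrocytes, read 88.9 untreated and 1716 with BMP2, 18.9-fold higher. Smpd3, a neutral sphingomyelinase needed for mineralisation, read 73.6 and 922, 12.3-fold higher. Spp1, osteopontin, read 10974 and 22150, a difference of 0.98. Col1a1, Col1a2 and Sparc differed by -0.04, -0.06 and -0.01. Mgp, an inhibitor of mineralisation, read 152450 and 78135, a difference of -0.99.

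The promoter of Bglap is shown because osteocalcin is the classical target of RUNX factors. In the 250 bases before the gene's start, from RefSeq on GRCm38.p6, the letters TGTGGT occur once, on the opposite strand. Capitals mark the match in this stretch at chr3:88384565-88384626 on the minus strand.
Bglap: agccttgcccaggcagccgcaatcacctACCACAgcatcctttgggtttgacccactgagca
The letters TGTGGT, on either strand, were in 11.3% of all 16184 promoters of measured genes, in 13.3% of those of genes called higher and in 14.1% of those of genes called lower.

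Cartilage matrix held the largest single difference among the lists and the most calls. Of 29 genes, 14 were higher and 6 lower, with a median of 0.94 without and 1.71 with LOXL2. Col10a1, the collagen of hypertrophic cartilage, read 15.8 on the untreated array, where it was not well above background, and 3386 on the BMP2 array. The ratio of these signals was 210-fold, a value made uncertain by the weak untreated signal. On the arrays with LOXL2 Col10a1 read 18.2 and 9265. Snorc, a cartilage proteoglycan, read 37.6 and 1360, 35.5-fold higher.

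The main cartilage collagens and aggrecan were all higher. Col2a1 read 26966 untreated and 117890 with BMP2, 4.28-fold higher. Acan read 182 and 1741, Col9a2 read 863 and 7967, and Col11a2 read 290 and 3057, which was 9.35-fold, 9.05-fold and 10.3-fold higher. Comp, a pentameric matrix protein, read 8800 and 43612. Prg4, the lubricin of joint surfaces, read 1291 and 6497.

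The 6 cartilage matrix genes called lower were Matn4, Epyc, Cilp, Ucma, Cilp2 and Mia. Matn4 read 10310 untreated and 2957 with BMP2, and both its probes were lower, at -1.83 and -1.92. Ucma, a protein of juvenile cartilage, read 1695 and 695. Cilp and Ucma did not reach 2-fold on the arrays with LOXL2, where they had differences of -0.48 and -0.56. Cilp was also a weak signal, at 93.95 and 37.7.

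Of 23 chondrocyte regulators, 8 were higher and 0 lower, with a median of 0.68. Fgfr3, the receptor that restrains growth plate cartilage, read 1102 untreated and 10506 with BMP2, 9.34-fold higher, and its 2 probes gave 2.94 and 3.22. Foxa2 and Foxa3, factors of hypertrophic differentiation, were below background without BMP2 and at least 5.41-fold and 2.41-fold higher with it. Sox9, which sets the chondrocyte fate, read 1539 and 2527, a difference of 0.68. Sox5 and Sox6, its partners, differed by 0.18 and -0.07.

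Hedgehog signalling runs from the ligand Indian hedgehog through the receptor Ptch1 and the transducer Smo to the GLI factors, and Gli1, Ptch1 and Hhip are themselves target genes of the pathway. These 4 genes were the members called higher among 15. Sufu, an inhibitor of the GLI factors, was called lower at -1.004 by 1 probe, while its other probe gave 0.17. Ihh read 25.3 untreated and 1233 with BMP2, 47.8-fold higher. Gli1 read 95 and 3340, 34.4-fold higher. Ptch1 read 87.3 and 523, 5.87-fold higher, and the decoy receptor Hhip read 53.2 and 420, 7.73-fold higher. The 2 probes of Ptch1 gave 1.95 and 2.55. The second Hhip probe was below background untreated and at least 3.73-fold higher.

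The transducer and the other GLI factors differed little. Smo read 17606 and 17919, Gli2 read 208 and 232, and Gli3 read 2151 and 2428. Shh was not well above background on either array. On the arrays with LOXL2 the differences of Ihh, Gli1, Ptch1 and Hhip were 6.19, 6.0, 3.14 and 3.61. The GLI letters GACCACCCA were found in 0 of the 13 promoters of this list and in 0.179% of all promoters, which says only that these letters are not in those windows.

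**Figure D3:**
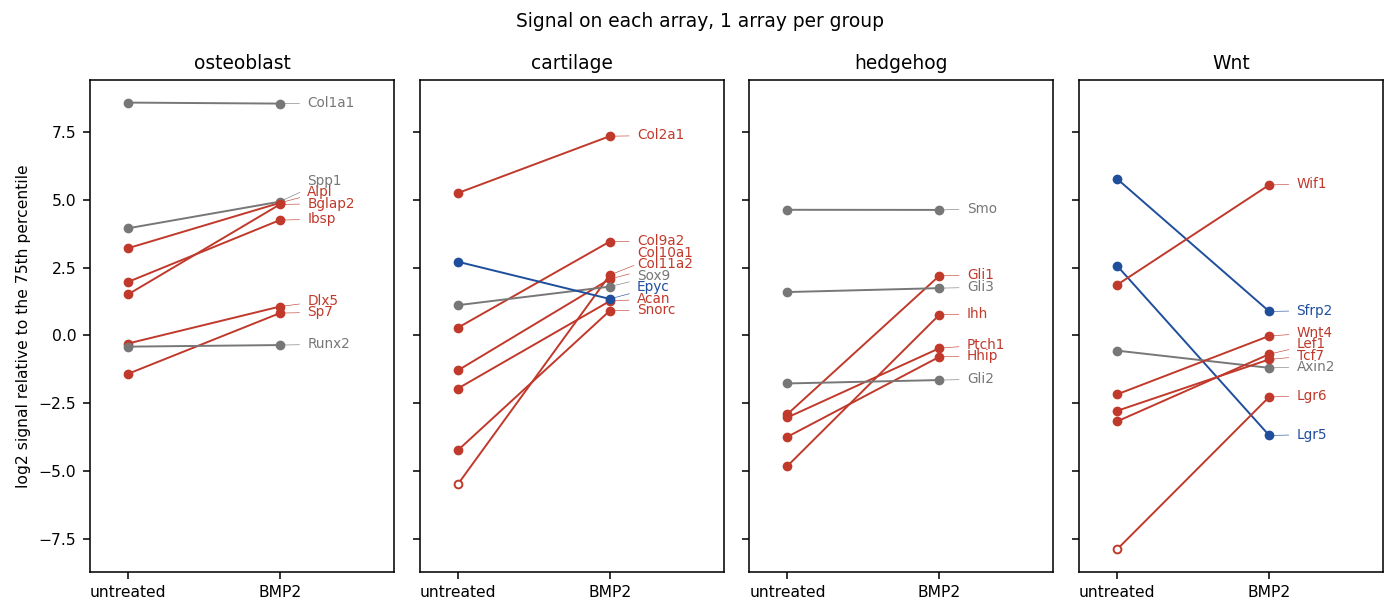
Log2 signal relative to the 75th percentile on the untreated and the BMP2 array, 1 array per group, for osteoblast, cartilage, hedgehog and Wnt genes. Red lines are genes at least 2-fold higher, blue lines genes at least 2-fold lower and grey lines those between, open circles mark signals not above background, and slopes rather than heights may be compared between genes.

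Wnt receptors included the largest decrease among the listed genes. LGR4, LGR5 and LGR6 bind R-spondins and so strengthen Wnt signals. Lgr5 read 4197 untreated and 56.3 with BMP2, 76.1-fold lower. Lgr6 read 3.01, below background, and 151, at least 10.6-fold higher. Lgr4 read 156 and 307, a difference of 0.95. On the arrays with LOXL2, Lgr5 read 3923 and 42.02 and Lgr6 read 2.80 and 235.

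Of 30 Wnt ligands and receptors, 5 were higher and 4 lower, with a median of 0.11. Wnt4 read 158 untreated and 715 with BMP2, with its 2 probes at 1.51 and 2.15. Wnt10b, a bone-forming ligand, read 294 and 771, and the receptor Fzd9 read 1768 and 5904. Fzd2 had a difference of -1.08 and Wnt5a of -0.89.

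Secreted Wnt inhibitors differed in opposite directions. Sfrp2 read 38727 untreated and 1339 with BMP2, 29.5-fold lower, and Wif1 read 2592 and 33953, 12.8-fold higher. Dkk2 read 1157 and 264, 4.46-fold lower, and Sfrp1 read 306 and 93.1. Axin2, a common readout of Wnt signalling, read 481 and 316, a difference of -0.64. Of the 22 inhibitors and feedback targets, 2 were higher and 3 lower.

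**Figure D4:**
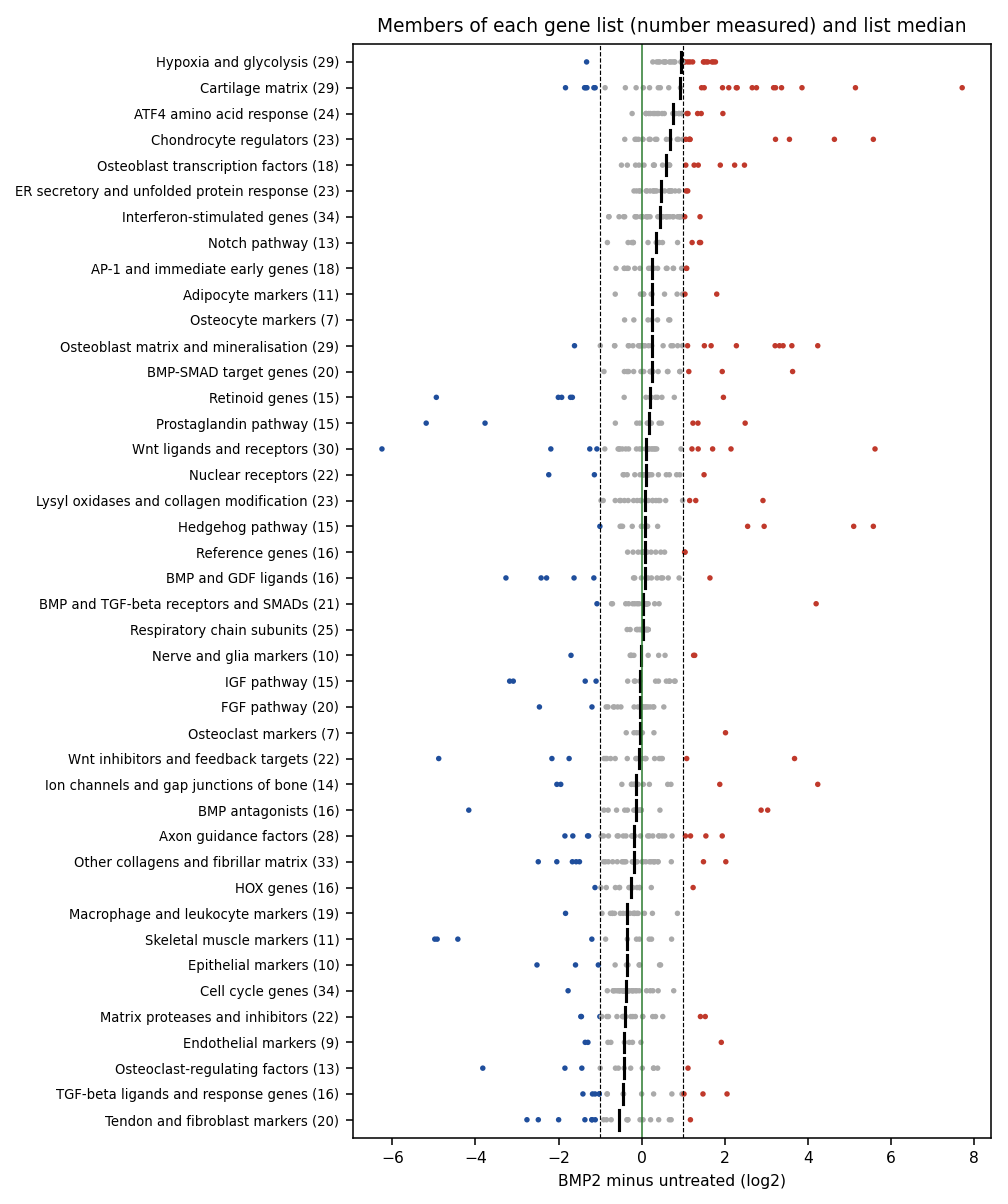
Each row is a gene list with the number of members measured, each point a member at its log2 difference of BMP2 minus untreated, and the black bar the list median. Red and blue points passed 2-fold and the green line is the median of all genes, 0.015. Medians run from 0.95 for hypoxia and glycolysis to -0.54 for tendon and fibroblast markers.

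Genes of prostaglandin and retinoid handling, small lipid signals, included several of the deepest decreases. Ptgds, a prostaglandin D2 synthase, read 4894 untreated and 137 with BMP2, 36.4-fold lower. The PGE2 receptor Ptger3 read 955 and 71.5, 13.6-fold lower, while the PGE2 receptor Ptger2 read 201 and 1155, 5.63-fold higher. Ptgs2, the inducible cyclooxygenase, read 814 and 2127. In the 15 retinoid genes, 5 were lower and 1 higher. Crabp1, a retinoic acid binding protein, read 3568 and 119, 30.7-fold lower. Of the enzymes that make retinoic acid, Aldh1a1 and Aldh1a2 had differences of -1.92 and -1.71 and Aldh1a3 of 1.97.

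In the IGF pathway 4 of 15 genes were lower and 0 higher. Igfbp2, which binds and carries IGFs, read 57693 untreated and 6517 with BMP2, 9.04-fold lower, and both probes gave -3.18. Igfbp3 read 4165 and 500, 8.51-fold lower. The binding protein Igfbp4 and the protease Pappa2 had differences of -1.10 and -1.36.

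The ligand Igf1 did not have 1 value. The probe that represents it, at chr10:87378456-87378515 on mm9, read 4453 and 3599, a difference of -0.34. The other 4 probes lie at higher coordinates, between 87393561 and 87399640, and were 5.28-fold to 11.04-fold lower. The probe at the far end read 8329 untreated and 770 with BMP2. On the arrays with LOXL2 the first probe gave -0.34 and the other 4 gave -2.06 to -3.42, so the first probe stood apart from the other 4 in both pairs.

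A search for such genes was added after these values were seen. Of 4424 named genes with 2 or more probes above background on all 4 arrays, 13 had probes at least 4-fold apart in their BMP2 difference, and 8 of these also had them on the arrays with LOXL2. They were Myh8, AW551984, Car10, Igf1, Adamts8, Trp63, Cela3a and Nhsl2. Of the 3 probes of Trp63, which encodes p63, 1 was 5.17-fold lower and the others had differences of -0.14 and 0.14. For Adamts8, a matrix protease, 1 probe was 7.10-fold lower and the other had a difference of -0.24.

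**Figure D5:**
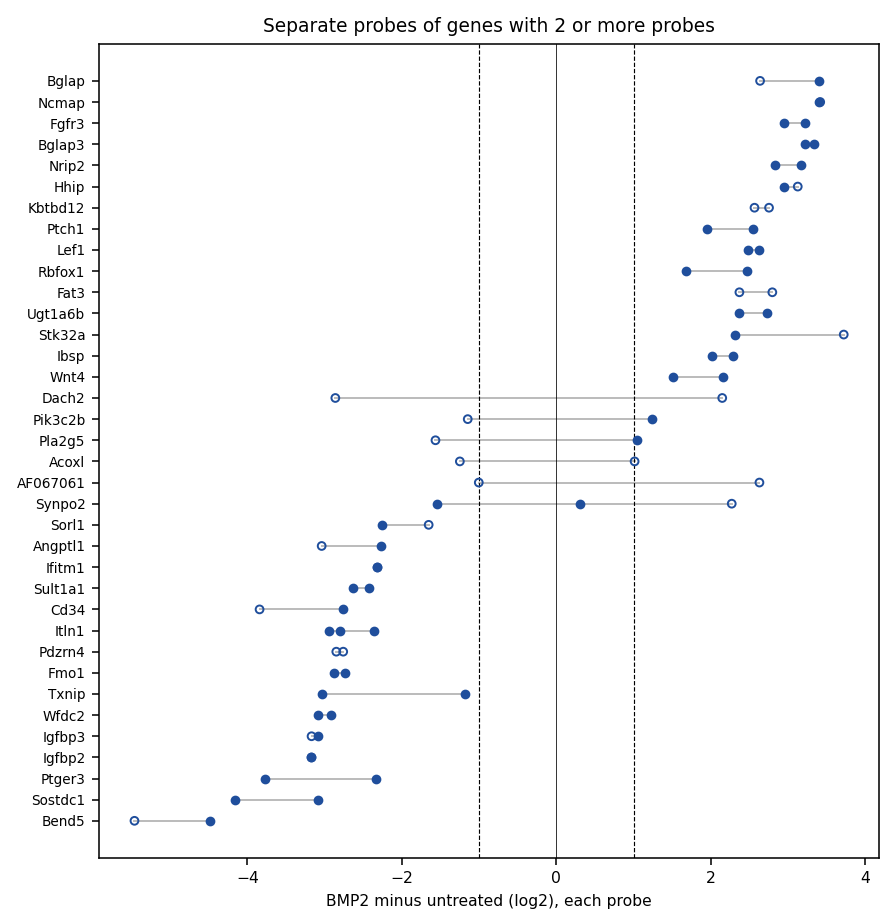
Log2 differences of BMP2 minus untreated for the separate probes of 36 genes with 2 or more probes, joined by a line per gene, with filled circles for probes above background on both arrays and open circles for the others. The genes at top and bottom were chosen because all their probes passed 2-fold the same way, and the 6 in the middle, from Dach2 to Synpo2, because 2 probes passed it in opposite directions.

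Of 13 factors that act on osteoclasts, the bone-resorbing cells, 1 was higher and 3 were lower, against 0 and 3 with LOXL2. Tnfsf11 (RANKL), which drives osteoclast formation, read 184 untreated and 406 with BMP2, with a difference of 1.12 without and 0.86 with LOXL2, and its soluble inhibitor Tnfrsf11b (osteoprotegerin) read 1600 and 1996. Il33, an alarm cytokine, read 412 and 29.7, 14.1-fold lower. The chemokine Cxcl12 read 6781 and 2554, and the guidance factor Sema3a read 1379 and 391.8. For Csf1, a macrophage growth factor, 3 probes had differences of -0.04 to -0.26, and the remaining probe was above background on the untreated array only, at 209.

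Enzymes that modify collagen were higher in 3 of 23 and lower in 0. P3h2, a prolyl 3-hydroxylase, read 28.5 untreated and 221 with BMP2, 7.58-fold higher. P4ha2, a prolyl 4-hydroxylase subunit, read 21925 and 55267, and the lysyl hydroxylase Plod2 read 1012 and 2303. Lox had a difference of -0.98, and Loxl2, the gene of the other protein in the study, differed by -0.11 over 16824 and 15952.

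Outside the cartilage types, 2 of 33 matrix genes were higher and 5 lower. Col8a1, a short-chain collagen, read 21606 untreated and 3934 with BMP2, 5.61-fold lower, and Fbn2, a fibrillin of elastic fibres, read 25532 and 6334. Thbs1, a matrix glycoprotein, read 122092 and 39278. Fbln1 and Fbln5, fibulins of elastic fibres, had differences of -1.58 and -1.50. Col5a3 was 4.08-fold higher, and Fn1 and Col3a1 differed by 0.29 and 0.32.

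Hypoxia and glycolysis genes had a median of 0.95 with 28 of 29 above 0, and a median of 0.83 with LOXL2. It was the highest median of the lists without LOXL2, just above the 0.94 of cartilage matrix, whose 1.71 was above it with LOXL2. Of the 29 hypoxia and glycolysis genes 12 were higher and 1 was lower. Slc2a1, the GLUT1 glucose transporter, read 9530 untreated and 27309 with BMP2, 2.81-fold higher. Car9, a carbonic anhydrase, read 5232 and 17722, 3.32-fold higher, and Vegfa, the vascular growth factor, read 1780 and 5343, 2.94-fold higher. Adm, adrenomedullin, was the member called lower, at 2871 and 1171. Respiratory chain subunits were called in 0 of 25 and lay between -0.35 and 0.16.

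Values of Pgk1, Eno1 and Hk1 in that list are less certain, because the file places the probe that represents each on another chromosome than the gene. Pgk1 had a difference of 1.05, under 2-fold with quantile normalization, with its probe on chromosome 3, while the gene is on chromosome X. This held for 6 of 853 genes in the lists or named, the others being Disp1, Gapdh and Nr1d2.

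Promoters of hypoxia genes are shown because HIF factors bind the letters ACGTG and because 28 of the 29 genes lay above 0. In the 250 bases before the start, ACGTG was found on either strand in 18 of the 39 promoters of this list, 46.2%, against 20.1% of all 16184 promoters. That list was made up of known hypoxia and glycolysis genes, so its share describes that choice and not the response to BMP2. Over all measured genes, the share was 16.02% in promoters of genes called higher and 15% in those of genes called lower. Capitals mark each match in the following stretches, with 1 in Car9 and Slc2a1 and a pair in Slc16a3, a lactate transporter that read 16515 untreated and 37789 with BMP2. The stretches lie on the plus strand of GRCm38.p6 at chr4:43506980-43507025, chr4:119108681-119108741 and chr11:120949012-120949066.
Car9: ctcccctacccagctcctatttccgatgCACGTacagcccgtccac
Slc2a1: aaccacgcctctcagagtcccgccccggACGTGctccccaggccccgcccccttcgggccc
Slc16a3: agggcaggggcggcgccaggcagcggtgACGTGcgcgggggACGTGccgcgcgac
The match begins 18 bases before the start in Car9, 36 in Slc2a1 and 27 in Slc16a3. A match is a description of these letters and shows no binding.

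ATF4 is a transcription factor made when amino acids run short or proteins misfold, and 23 of its 24 listed targets lay above 0, with 5 higher and 0 lower. The median was 0.77, and 0.44 with LOXL2. Trib3, a pseudokinase, read 18741 untreated and 74271 with BMP2, 3.88-fold higher. The glycine transporter Slc6a9 read 14609 and 40327, and Atf3, a stress factor, read 277 and 721. Asns, asparagine synthetase, had a difference of 0.78. In the list of the secretory pathway and unfolded protein response, 2 of 23 were higher, Ddit3 and Pdia4, and the chaperone Hspa5 read 172460 and 220737.

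The letters TGATGNAA, a C/EBP-ATF composite site to which ATF4 binds, were in 8 of the 26 promoters of the ATF4 list, 30.8%, and in 2.32% of all promoters. That list was made up of known ATF4 targets, so this contrast describes that choice and not the response to BMP2. Among listed genes with a match, the 1 called higher was Atf3. Its stretch at chr1:191183408-191183471 on the minus strand of GRCm38.p6 holds the match on the opposite strand, in capitals.
Atf3: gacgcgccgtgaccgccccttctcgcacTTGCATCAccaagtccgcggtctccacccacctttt
In promoters of genes called higher the share was 2.36%, and in those of genes called lower 3.55%. Of the remaining motifs searched, the SMAD element GGCGCC was in 14.98% of all promoters, the Notch site TGGGAA in 20.8%, the TCF site CTTTGA in 11.1% and the SOX site ACAATGG in 2.06%. In promoters of genes called higher these shares were 15.5%, 21.2%, 11.6% and 1.35%, and in those of genes called lower 11.6%, 21.2%, 11.2% and 2.89%. In the lists chosen for each motif, the shares were 25% for SMAD (5 of 20 promoters), 27.3% for Notch (3 of 11), 7.14% for TCF (1 of 14) and 3.70% for SOX (1 of 27), and that of RUNX was 17.9% (5 of 28). Both strands were searched, and none of the 8 motifs contains another.

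Cell cycle genes lay mostly below 0, at a median of -0.38, with 5 of 34 above it and 1 past 2-fold. That gene was Cdkn1c, a cell cycle inhibitor, which read 88280 untreated and 26437 with BMP2, 3.41-fold lower. The proliferation marker Mki67 read 2397 and 1794, and the inhibitor Cdkn1a, p21, read 5357 and 9351.

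Interferon-stimulated genes were higher in 2 of 34 and lower in 0, with a median of 0.44 against -0.020 on the arrays with LOXL2. Ifi44 read 983 untreated and 2661 with BMP2, and Usp18 read 1431 and 3001. Mx1 read 44.0 and 60.7 without LOXL2 but 95.8 and 17.6 with it. Set against the untreated array, which these values share, the list's median was 0.44 on the BMP2 array, 0.33 on the LOXL2 array and 0.23 on the array with both proteins.

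Tendon and fibroblast markers had the lowest median of the lists, -0.54, with 7 of 20 lower and 1 higher. Cd34, a surface marker of fibroblast progenitors, read 6247 untreated and 942 with BMP2, 6.77-fold lower, and its second probe, below background with BMP2, was at least 5.39-fold lower. Tnmd, a tendon membrane protein, read 8000 and 2045, and Dpt, a dermal matrix protein, read 407 and 74.4. The tendon factor Mkx had a difference of -1.19 and Scx, another, of -0.33. Fap, fibroblast activation protein, read 3534 and 8148.

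In a Notch list without Hey1, which was counted with the BMP-SMAD targets and was 12.4-fold higher, 3 of 13 genes were higher. Of these 3, Hes1, a transcriptional repressor, was above background on both arrays, at 191 and 452. Hes1 was just under 2-fold on the arrays with LOXL2, at 0.99, where 1 Notch gene was higher, and Dtx1, another of the 3, was not 2-fold higher at its bound. The FGF list did not hold Fgfr3, which was counted with the chondrocyte regulators and was 9.34-fold higher. Of its 20 genes 0 were higher and 2 lower, among them the ligand Fgf9, which read 460 untreated and 85.4 with BMP2. Axon guidance factors were higher in 4 of 28 and lower in 4. Slit1 read 279 and 832 and its relative Slit2, also a secreted guidance cue, read 1705 and 719, so these paralogues lay on opposite sides of 0. Of 14 channel and gap junction genes 2 were higher and 2 lower, with the calcium channel Trpv4 at 847 and 3188 and the potassium channel Kcnk2 at 376 and 99.7.

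Matrix proteases and their inhibitors were higher in 2 of 22 and lower in 3. Timp3, a protease inhibitor, read 10512 and 31051, and the aggrecanase Adamts5 read 599 and 224. Immediate early genes were higher in 2 of 18, nuclear receptors in 1 of 22 with 2 lower, and HOX genes in 1 of 16 with 1 lower. The HOX gene counted as higher, Hoxc5, was below background untreated and only 1.69-fold higher at its bound. Of the 16 HOX genes, 0 passed 2-fold the same way in both pairs. None of the 7 osteocyte markers measured was called. Of 16 reference genes 2 were higher, the transferrin receptor Tfrc and Pgk1, with a list median of 0.08.

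Markers of other cell types were measured for both arrays, and their part in the results was not tested. Summed intensity of the 19 macrophage and leukocyte markers was 31409 untreated and 27170 with BMP2, with 16 of them below 0 and 1, Mrc1, called lower. Of 11 skeletal muscle markers, 4 were lower, and the summed intensity of all 11 was 26497 untreated and 10443 with BMP2. Acta1, the actin of skeletal muscle, held most of that sum, at 16496 untreated and 7343 with BMP2, 2.29-fold lower. The myosins Myh1 and Myh8 read 3109 and 3904 untreated and 101 and 132 with BMP2, while the muscle factors Myod1 and Myog read 20.3 and 25.7 untreated and 23.8 and 23.9 with BMP2. Of 9 endothelial markers 2 were lower and 1, Vwf, was higher, and of 11 adipocyte markers 2 were higher, with Pparg at 0.05. Nerve and glia markers were higher in 2 of 10 and lower in 1, and epithelial markers lower in 3 of 10. These 3 were Cdh1 and Cldn1, both below background with BMP2, and Krt19 at -1.04, which median scaling brought under 2-fold. Normexp correction ended all 3 calls and also that of the nerve gene Rbfox3. Of 7 osteoclast markers, 3 lay above 0 and 4 below, down to -0.37, with a median of -0.05. Atp6v0d2 was called higher, at 67.6 and 280, while Ctsk and Acp5 differed by 0.51 and 0.30.

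Genes with several probes that all passed 2-fold gave a further set whose roles lie outside these lists. Bend5, a DNA-binding repressor, read 1147 untreated and 52.3 with BMP2, 22.4-fold lower. Fmo1, a flavin monooxygenase, read 4813 and 668, and Sult1a1, a sulfotransferase, read 1016 and 193. Txnip, an inhibitor of thioredoxin, read 355 and 44.2, with its 2 probes at -3.04 and -1.18. Ncmap read 51.4 and 554 and Nrip2, a nuclear receptor partner, read 118 and 1084, which was 10.6-fold and 9.02-fold higher.

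For genes above background on 1 of the 2 arrays the difference is given as a bound. It holds only if the dim signal was no higher than the value put in its place. For Egfl6 that value was its own reading of 11.3. Egfl6, a secreted factor with EGF-like repeats, read 467 untreated and was below background with BMP2, at least 42.05-fold lower. Tspan8, a tetraspanin, read 365 untreated and was at least 34.96-fold lower, and Vip, a neuropeptide, read 221 and was at least 21.2-fold lower. On the arrays with LOXL2 these 3 genes were at least 38.6-fold, 33.6-fold and 20.6-fold lower. Among genes higher only on the BMP2 array, Slc10a4, a transporter-like protein, was at least 10.3-fold higher without and at least 15.5-fold higher with LOXL2. The olfactory receptor Olfr705 was at least 14.7-fold higher without LOXL2 and not well above background on either array with it.

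Neighbouring genes differed together at several places. On chromosome 11, Myh2, Myh1, Myh4, Myh8 and Myh13, related genes whose probes may share signal, were all called lower over 172 kb. Myh2 was below background with BMP2, and 1 of the 3 Myh8 probes gave -0.65. On chromosome 4, 7 Mup genes, close copies whose probes may share signal, were lower, and Mup9 and Mup18 among them were below background with BMP2. On chromosome 9, Mmp1b, Mmp3, Mmp27 and Mmp7 were lower, though all but Mmp3 were below background with BMP2 and Mmp1b had no signal well above background with LOXL2. The osteocalcin genes formed a higher run on chromosome 3, over 15.8 kb.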

How the data were processed

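The deposited scanner files hold, per the file headers, spot intensity values made by the authors with Agilent Feature Extraction 10.7.3.1, background-subtracted and with a surrogate value for signals not above background. Each group had 1 array, so no test was run. From the spot intensities of non-control spots, log2 values were taken and the 75th percentile of each array was subtracted. Spots marked as outliers were left out and spots of a probe averaged. Probes that neither array measured well above background were dropped, which left 34690 probes of 24495 genes, 16403 with a current symbol. RefSeq accessions named 26762 probes, and 28919 kept the name in the file. Each gene is represented by its probe of highest mean. For a signal below background, a bound used the larger of that signal and the array's lowest signal above background (13.9 untreated, 10.7 with BMP2). Some signals not well above background were higher than these, such as Nr3c2 at 17.97 untreated, so the bounds are not strict limits.

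The 42 gene lists, some sharing genes, and the rules for naming genes were chosen with earlier results of these data known. Named were the 15 largest differences each way in genes with all probes past 2-fold, the 10 largest bounds each way, and the key genes and 4 largest differences of each list. Also named were 10 genes of opposite sign between pairs, the 10 brightest genes, and genes whose probes passed 2-fold in opposite directions. Others named were chosen after their values were seen. The steps were tested on simulated data, with the same noise at all signals and differences planted only in genes above background on both arrays. That check therefore does not cover calls at weak signals. Alternatives were other scalings, normexp correction in limma 3.58.1, filters, the median over probes, the deposited value table and, chosen after seeing the data, bounds for dim signals.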

Additional observations from a re-analysis of the deposited data

Results flagged for a closer look

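Of the genes whose BMP2 difference passed 2-fold in opposite directions in the pair without and the pair with LOXL2, the 10 with the widest gap are given, and none of these was above background on all 4 arrays. The difference between pairs was not tested. Each had 1 probe and was above background on 1 array of each pair, so the sizes and the gap rest partly on the surrogate signals of the other array. With those signals at their bounds, Hjv, Olfr392 and Coro2a still passed 2-fold in opposite directions and the other 7 did not. Serpina5 gave 2.53 without and -6.37 with LOXL2, Hjv 4.20 and -4.38, Tac4 2.96 and -5.38, and Tas2r114 -2.29 and 4.96. The olfactory receptors Olfr1463, Olfr1000 and Olfr392 gave 1.94 and -5.26, 3.14 and -3.18, and -2.81 and 3.48. Ces2f gave 2.26 and -2.38, Slc16a5 2.11 and -2.36, and Coro2a 2.71 and -1.69. Among all genes with a symbol, 15 behaved so, and 1 of them was above background on all 4 arrays.

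The median of the interferon-stimulated genes was 0.44 without and -0.020 with LOXL2. That gap was not tested either.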

How the results depend on the processing

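Counts of genes at least 2-fold apart followed the treatment of weak signals. With normexp correction 339 genes were higher, 409 lower and 758 apart on the arrays with LOXL2. With probes above background on both arrays the counts were 516, 617 and 1178, and without a filter 1353, 1839 and 3286. The share of called genes that were higher was 43.1% and became 46.9% with median scaling, 45.4% with no scaling, 45.5% with probes above background on both arrays and 40.1% with dim signals at their bounds. Quantile normalization, the deposited value table, the median over probes and keeping outlier spots left these counts within 1.5 times.

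Of the named genes, Acoxl turned to -1.15 with quantile normalization and to -0.12 with the median over probes, where AF067061 turned to 0.81, Dach2 to -0.36, Pla2g5 to -0.26 and Synpo2 to 0.31. On the arrays with LOXL2, Acoxl gave -0.81, Ces2f -2.38, Coro2a -1.69, Hjv -4.38, Olfr1000 -3.18, Olfr1463 -5.26, Olfr392 3.48, Pik3c2b -0.26, Serpina5 -6.37, Slc16a5 -2.36, Tac4 -5.38 and Tas2r114 4.96. The cause was not tested. Under the settings of the processing the medians of 6 lists that lay near 0 changed sign, those of the BMP and GDF ligands (0.08, down to -0.020), FGF, IGF, nerve and glia, osteoclast and respiratory chain lists. On the arrays with LOXL2 the medians of BMP antagonists, channels and gap junctions, and interferon-stimulated genes changed sign, to 0.04, 0.01 and -0.020. Of 206 named calls, normexp correction ended 48. Signal over background limits every value below about 14 in intensity. No paired analysis was possible because each group had 1 array.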

Other observations

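Imprinted genes, which are expressed from the copy of 1 parent and many of which control growth, had 9 of 27 measured members at least 2-fold lower with BMP2 and 2 higher, and 7 of the 9 were at least 2-fold lower with LOXL2 too. The list was written after values of several members had been seen, so its count supports nothing. Dlk1, an inhibitor of adipocyte differentiation, read 10178 untreated and 3263 with BMP2, and its 2 probes gave -1.67 and -1.73. Its neighbours Meg3 and Mirg on chromosome 12, which are noncoding RNAs, had differences of -1.41 and -1.35. The 3 probes of Meg3 ranged from -1.41 to -0.70. Cdkn1c, Mest, Peg3, Plagl1, Grb10 and Zim1 had differences of -1.77, -1.45, -1.64, -1.05, -1.04 and -1.97. The 2 called higher were Ascl2, at 1.81 without and 2.04 with LOXL2, and Nnat, at 1.36 and below background untreated. H19 and Igf2, which share an imprinted domain, differed by 0.03 and -0.04, with all 7 H19 probes between -0.08 and 0.10. Plagl1 and Zim1 did not reach 2-fold on the arrays with LOXL2, at -0.44 and -0.43, and the 4 probes of Plagl1 ranged from -1.10 to -0.25.

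Of 17 circadian clock genes, also listed after their values were seen, 4 were at least 2-fold higher in both pairs and 0 were lower. Nr1d2, Ciart, Bhlhe40 and Dbp gave 1.504, 1.27, 1.14 and 1.03. Of the core genes, Arntl, Per1, Per2, Cry1 and Cry2 differed by 0.21, -0.10, -0.17, -0.17 and -0.29. Clock, Nr1d1 and Per3 differed by 0.91, 0.92 and 0.86, and by 1.13, 1.11 and 1.45 with LOXL2. Per3 was a weak signal, at 22.7 untreated and 42.3 with BMP2. The representing probe of Nr1d2 is placed by the file on chromosome 19, while the gene is on chromosome 14.

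Several genes with large differences stood in no list and were picked by size after seeing the data. Meltf, melanotransferrin of cartilage, read 66.2 untreated and 1404 with BMP2, a difference of 4.38 without and 5.76 with LOXL2. Ostn, osteocrin of bone, read 384 and 6014. Saa3, an acute phase protein, gave 3.88 without and 1.52 with LOXL2.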
